A study of Mus musculus with 4 samples.

Results

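Cdkn2a and 5 genes related to it by function were followed in macrophages of the mouse peritoneal cavity. The 6 genes, of 31253 in the matrix, are the cyclin-dependent kinase inhibitors Cdkn2a, Cdkn2c, Cdkn2d, Cdkn1a and Cdkn1b, and Trp53, which encodes the transcription factor p53. They were taken by symbol, and all 6 were found. The set was chosen on levels seen in an earlier look at these counts, in which Cdkn2a was prominent, and its relation to Timd4 and to cell division was part of that choice. All values of the 6 genes are therefore given as a description, and no test was run on them.

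Cells carrying F4/80, the product of Adgre1, were sorted from 4 kinds of mice aged 24 weeks, with 1 sample of each. The first were Apoe-/- mice that ate a high-fat diet (HFD) with 21% fat and 0.15% cholesterol for 20 weeks from 4 weeks of age and had 3 mg of anti-CVI-mAb, an antibody to collagen VI, injected into the peritoneum at week 21. The second were Apoe-/- mice on that diet given PBS, the third Apoe-/- mice on a normal diet given PBS, and the fourth C57BL/6 mice on a normal diet given PBS. The diet mice were male and went back to a normal diet before the injection. The deletion in the Apoe-/- mice is in every cell, and all 3 Apoe-/- groups share it. The number of mice behind a sample is not stated in the labels. Barcodes carry 1 of 4 suffixes, called libraries 1 to 4 here, and which library came from which mice is not recorded in the sources used. Each library is therefore described by itself, and diet, antibody and genotype were not compared.

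Cyclin-dependent kinases drive cells from growth into DNA synthesis and mitosis, and 2 families of small proteins hold them back. The INK4 family (Cdkn2a, Cdkn2b, Cdkn2c, Cdkn2d) binds CDK4 and CDK6, the partners of D-type cyclins. The CIP/KIP family (Cdkn1a, Cdkn1b, Cdkn1c) binds cyclin complexes more widely, and p53 is the best known activator of Cdkn1a. Cdkn2a is unusual in that 2 promoters give 2 unrelated proteins. One is p16Ink4a, a CDK4 and CDK6 inhibitor, and the other is p19Arf, which stabilises p53 by holding off Mdm2. Resident macrophages of the peritoneum carry Timd4, a receptor for phosphatidylserine on dying cells, and renew themselves locally by division.

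On GRCm38, Cdkn2a spans 89274471 to 89294653 on the minus strand of chromosome 4. Its transcript Cdkn2a-201 (p16Ink4a, 168 codons) and Cdkn2a-202 (p19Arf, 169 codons) start with different exons, at 89281986 to 89282192 and at 89294334 to 89294653. Both use exon 2 at 89276645 to 89276985, and their last exons overlap from 89274541 to 89274774. The libraries count the 3' ends of transcripts, so the counts cannot separate p16Ink4a from p19Arf, and every Cdkn2a value below is the sum of both. Cdkn2b lies 11645 bases away on the same strand. No annotated gene of GENCODE M21 overlaps Cdkn2a, Cdkn2c, Cdkn2d, Cdkn1b or Trp53, while Cdkn1a overlaps AC167363.2, an unconfirmed model on the other strand.

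The promoter windows below, from RefSeq on GRCm38.p6, show the starts that the Cdkn2a counts merge, the start of Cdkn1a, the gene that p53 activates, and a start of Cdkn2c, the member with the largest median ratio in dividing cells. Each window runs from 250 bases before a start to 50 after it, 5′ to 3′ on the gene's strand. Capitals mark matches on either strand to an E2F word (TTTCCCGC, TTTCGCGC, TTTGCCGC or TTTGGCGC) or to CATG, any 6 bases and CATG again, the paired core of a p53 element; the words do not overlap one another, and TATAAA was searched as well.
Cdkn2a, p19Arf start, chr4:89294570-89294869, minus strand: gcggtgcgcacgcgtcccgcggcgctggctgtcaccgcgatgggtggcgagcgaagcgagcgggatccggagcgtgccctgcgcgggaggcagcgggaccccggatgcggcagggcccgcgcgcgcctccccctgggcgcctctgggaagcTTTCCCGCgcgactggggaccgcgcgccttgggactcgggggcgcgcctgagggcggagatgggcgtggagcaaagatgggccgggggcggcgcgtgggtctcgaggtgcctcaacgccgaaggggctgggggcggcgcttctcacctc
Cdkn2a, p16Ink4a start, chr4:89282143-89282442, minus strand: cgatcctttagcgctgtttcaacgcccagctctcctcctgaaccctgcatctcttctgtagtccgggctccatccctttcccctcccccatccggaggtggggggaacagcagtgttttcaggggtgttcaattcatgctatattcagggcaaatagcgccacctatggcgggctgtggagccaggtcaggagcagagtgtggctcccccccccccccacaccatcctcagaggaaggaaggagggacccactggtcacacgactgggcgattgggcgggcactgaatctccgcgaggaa
Cdkn1a, upstream start, chr17:29090729-29091028, plus strand: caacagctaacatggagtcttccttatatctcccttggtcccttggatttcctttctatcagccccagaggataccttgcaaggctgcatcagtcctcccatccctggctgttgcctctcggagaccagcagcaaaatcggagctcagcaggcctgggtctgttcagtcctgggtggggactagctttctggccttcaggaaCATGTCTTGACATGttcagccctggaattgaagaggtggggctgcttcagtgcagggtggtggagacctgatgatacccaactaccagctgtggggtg
Cdkn2c, first start, chr4:109666707-109667006, minus strand: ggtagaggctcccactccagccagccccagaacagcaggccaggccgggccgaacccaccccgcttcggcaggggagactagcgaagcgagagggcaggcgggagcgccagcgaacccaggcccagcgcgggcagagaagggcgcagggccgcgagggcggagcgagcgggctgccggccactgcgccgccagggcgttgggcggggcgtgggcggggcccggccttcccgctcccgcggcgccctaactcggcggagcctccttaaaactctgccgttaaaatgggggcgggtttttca
The p19Arf window held 1 E2F word, at position 152 counted from 1 at its 5′ end, and 45 CpG pairs. The p16Ink4a window held none of the motifs and 12 CpG pairs, against a median of 7 over the 32851 windows of the reference. The Cdkn1a window held the p53 core at position 203. An E2F word stood in 2.26% of all windows, the p53 core in 0.712% and TATAAA in 13.6%. None of the searched words was found in the Cdkn2c window shown. These are matches of letters and no measurement of binding.

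Total UMI counts (molecules counted by their tags) were between 40321459 and 78083803 a library. Of 26811 barcodes, those with at least 500 genes and at most 10% mitochondrial UMIs were kept, and macrophages had Adgre1 at 2 UMIs or more and no UMI of Cd79a or Cd3e. Macrophages numbered 1538, 4218, 4334 and 5017 in libraries 1 to 4. All 7 macrophage markers were present in every library, at summed levels of 35502 to 61502 UMIs per 1000000 UMIs (CPM). Library 1 stood apart: 57.7% of its barcodes passed the filters, its macrophages were shallower (median 8218.5 UMIs, against 12506.5 to 13951 in the others), and B cell genes summed to 144 CPM in them, against 6.94 to 18.7 CPM. Mast cell genes summed to 63.3 CPM there, against 2.49 to 5.99 CPM. Library 1 also held 5 dividing macrophages. Between 6 and 12 barcode sequences recurred between any pair of libraries.

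Cdkn2a was higher in macrophages with 3 or more Timd4 UMIs (Timd4-high) than in the others (Timd4-low) in all 4 libraries, while none of the other members differed by 2-fold. Timd4-high cells numbered 122, 541, 2069 and 2655. Their Cdkn2a level was 23.9, 50.3, 88.0 and 127.5 CPM in libraries 1 to 4, and that of Timd4-low cells 3.54, 1.91, 25.1 and 39.1 CPM. The log2 ratios were 2.76 (95% counting interval 2.0 to 3.48), 4.71 (4.39 to 5.06), 1.81 (1.70 to 1.93) and 1.71 (1.61 to 1.8). Every interval covers counting error only, since a group has 1 library and cells are not replicates. Among the 8 sets of cells, the order ran from Timd4-high cells of library 4 down to Timd4-low cells of library 2. Within that order, Timd4-low cells of library 3 and Timd4-high cells of library 1, at 25.1 and 23.9 CPM, had overlapping counting intervals. Those of the other neighbours did not overlap. Cdkn2a UMIs were uneven over cells, as given below, so these intervals are too narrow and do not settle the steps of the order.

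With each cell thinned to 3000 UMIs, 4.96, 9.26, 16.1 and 22.6% of Timd4-high cells held a Cdkn2a UMI, against 0.826, 0.469, 4.82 and 8.57% of Timd4-low cells. Thinning left out 85, 55, 24 and 29 shallower macrophages. Without thinning, Timd4-high cells had median depths of 8846 to 14754 UMIs and Timd4-low cells of 8110.5 to 13340. B cells, which gave the background from free RNA, held a Cdkn2a UMI in 0.173, 0.181, 0 and 0.388% of thinned cells and had median depths of 4853.5 to 9396 UMIs. T cells did so in 0, 0, 2.82 and 1.43% of 54 to 71 thinned cells a library, at medians of 4360 to 5676 UMIs. The Timd4-low level of library 2, 1.91 CPM (1.54 to 2.35), overlapped that of its B cells, 0.620 CPM (0.128 to 1.81). As a level over the whole set it is therefore not told apart from background here. The UMIs were uneven over these 3677 cells: 18 held 1, 10 held 2 to 4, 5 held 5 to 9 and 1 held 12.

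A gene was called when it reached 20 CPM in the higher set and passed 2-fold in 1 direction in each library. Of 4691 genes that could be called between Timd4-high and Timd4-low cells, 2 were higher (0.0426%), Cdkn2a and Marco, a scavenger receptor. Another 4 were lower (0.0853%): Chil3, Napsa, Coro1a and Ccr2. Of 5 members tested, Cdkn2a was the 1 called, and since the split belongs to how Cdkn2a was chosen, nothing is read from that count. Markers of small peritoneal or monocyte-derived macrophages also moved with the split. The 7 genes of that list summed to 5049, 8553, 2229 and 3756 CPM in Timd4-high cells, against 17833, 14275, 5073 and 8905 CPM in Timd4-low cells. The large peritoneal list summed to 8055, 7353, 9596 and 9406 CPM, against 5234, 6306, 8502 and 8126 CPM. Dendritic cell genes in library 1 summed to 65.5 CPM in Timd4-high cells, against 16.7 CPM in Timd4-low cells, and to 12.1 CPM or less in both classes of the other libraries. Their part in the Cdkn2a difference was not tested.

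**Figure D1:**
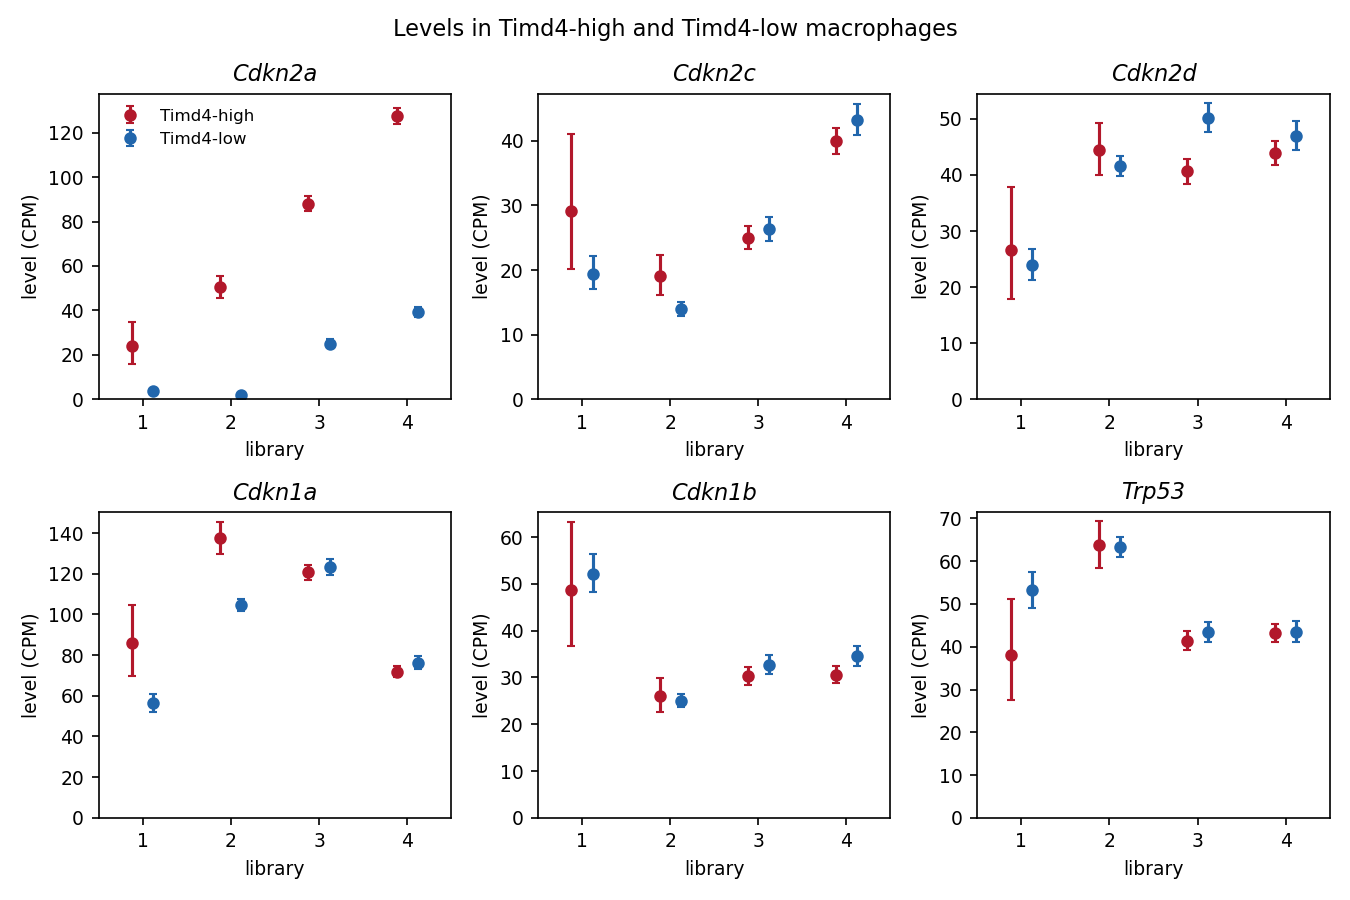
Levels of the 6 genes (vertical axis, CPM from 0) in Timd4-high (red) and Timd4-low (blue) macrophages of each library (horizontal axis), with exact 95% Poisson intervals. The red Cdkn2a points, 23.9 to 127.5 CPM, lie above the blue ones of their own library. For the other genes the 2 colours lie within 2-fold of each other. Cdkn1a stands at 85.8 (red) against 56.4 CPM (blue) in library 1 and 137 against 105 CPM in library 2.

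The rule's limit of 3 Timd4 UMIs did not mark a step common to the libraries. Cells with 3 Timd4 UMIs, just inside it, had 45.5, 14.4, 90.1 and 107 CPM of Cdkn2a. Cells with 2, just outside, had 41.0, 16.3, 50.1 and 85.9 CPM. Across bins of 0 to 10 or more Timd4 UMIs, Cdkn2a was higher at the upper than at the lower end in libraries 2 to 4, though not at every step. The top bin held 73.7, 103 and 135 CPM there, and the bin at 0 Timd4 UMIs 1.26, 15.8 and 21.2 CPM. In library 1 the bins above 0 held 8 to 99 cells each and showed no order.

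Cdkn2a UMIs came from a minority of cells, some of which held many copies in libraries 2 to 4. Among Timd4-high cells of libraries 1 to 4, 11, 17, 158 and 261 held a single Cdkn2a UMI. In Timd4-high macrophages of libraries 2, 3 and 4, 10, 74 and 134 cells held 10 or more Cdkn2a UMIs, and the highest cell held 22, 29 and 39. In library 1 no cell reached 10. Timd4-high cells with any Cdkn2a UMI carried 1.69, 5.02, 4.76 and 4.75 of them on average, and Timd4-low cells with any carried 2.05, 2.65, 3.22 and 3.05. After thinning, the variance over the mean in Timd4-high cells was 1.81, 1.92, 2.05 and 2.01 for Cdkn2a. The median gene of like level (within 2-fold) had 0.993 to 1.04, and 17, 13, 6 and 3 of 2713, 3428, 2016 and 1340 such genes exceeded Cdkn2a. The counting intervals, which assume a ratio of 1, are therefore too narrow for Cdkn2a.

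**Figure D2:**
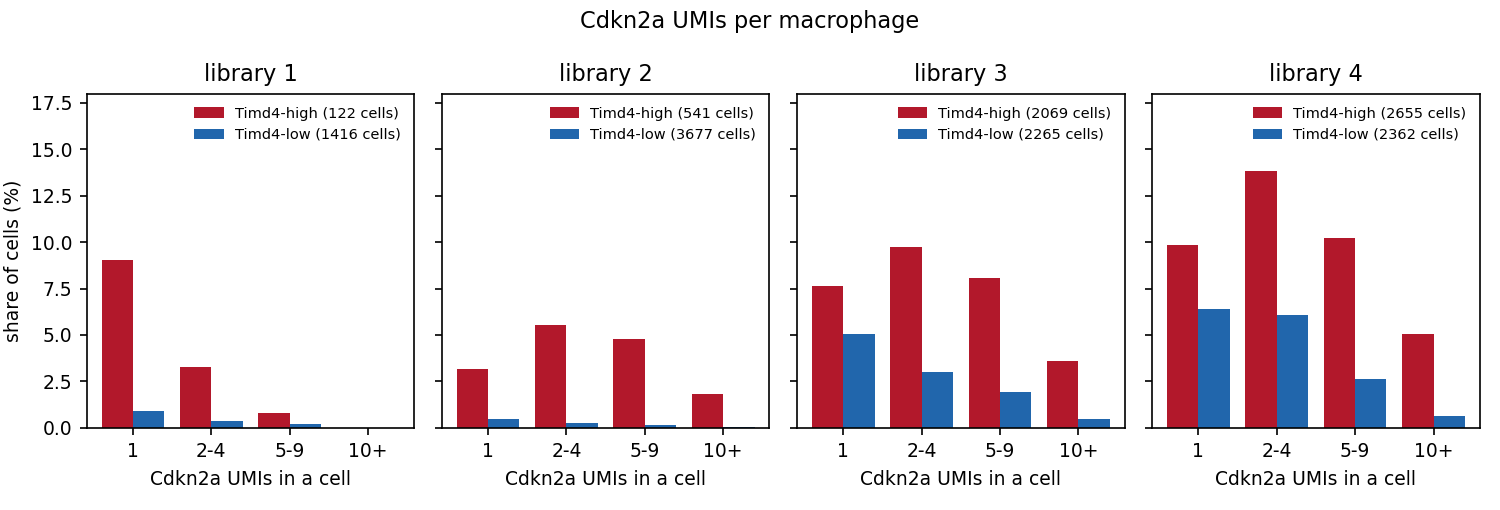
Share of macrophages (vertical axis, percent) with 1, 2 to 4, 5 to 9 or 10 and more Cdkn2a UMIs (horizontal axis), Timd4-high in red and Timd4-low in blue, 1 panel a library. Cells with 10 or more are 1.85, 3.58 and 5.05% of Timd4-high cells in libraries 2, 3 and 4, and 0.0272, 0.486 and 0.635% of Timd4-low cells.

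Among the other INK4 genes, Cdkn2b, the neighbour of Cdkn2a and no member, had the more similar pattern. Its level was 14.2, 5.19, 16.1 and 27.4 CPM in Timd4-high cells of libraries 1 to 4, against 1.90, 0.999, 8.87 and 17.6 CPM in Timd4-low cells. The log2 ratios were 2.91, 2.38, 0.86 and 0.64, and no interval reached 0. Cdkn2c, which encodes p18Ink4c, had 29.2, 19.1, 25.0 and 40.0 CPM in Timd4-high cells and 19.5, 13.9, 26.3 and 43.2 CPM in Timd4-low cells. Its ratios, 0.60, 0.46, -0.08 and -0.11, changed sign between libraries. Cdkn2d, the gene of p19Ink4d, had 26.5, 44.4, 40.6 and 43.8 CPM in Timd4-high cells, against 23.9, 41.6, 50.2 and 47.0 CPM. Its largest ratio in size was -0.31, in library 3.

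The CIP/KIP members varied more between libraries than with Timd4. Cdkn1a, which encodes p21, had 85.8, 137, 121 and 71.9 CPM in Timd4-high cells of libraries 1 to 4 and 56.4, 105, 123 and 76.3 CPM in Timd4-low cells. It was higher in Timd4-high cells of libraries 1 and 2 (log2 ratios 0.61 and 0.39) and near equal in libraries 3 and 4 (-0.03 and -0.09). Cdkn1b, the gene of p27, had 48.7, 26.1, 30.3 and 30.6 CPM in Timd4-high cells, against 52.2, 25.0, 32.6 and 34.6 CPM. Library 1 was the highest for Cdkn1b in both classes. T cells, which are known to hold p27 at rest, had 124 to 232 CPM of Cdkn1b.

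Trp53 had 38.0, 63.7, 41.5 and 43.2 CPM in Timd4-high cells, against 53.2, 63.3, 43.4 and 43.5 CPM in Timd4-low cells. The log2 ratio was -0.47 (-0.96 to -0.04) in library 1 and between -0.07 and 0.01 in the other 3. Of the p53 pathway list, 9 of 20 genes could be tested across the Timd4 split and none was called. Over all genes tested, 0.0426% were called higher and 0.0853% lower, so nothing is read from that. Gadd45a, a stress-induced growth arrest gene, came nearest, with ratios of 1.11, 1.25, 0.48 and 0.28. The median over the 9 genes was 0.01, beside 0.03 over all genes tested.

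Dividing macrophages were those with 5 or more UMIs of Mki67, Top2a, Birc5 and Ube2c together, which gave 186, 172 and 136 cells in libraries 2, 3 and 4. Cdkn2a was lower in them than in the other macrophages of each of these libraries, while Cdkn2c and Cdkn2d were higher. Cdkn2a had 1.63, 21.5 and 24.4 CPM in dividing cells of libraries 2, 3 and 4, against 9.79, 59.9 and 92.4 CPM in other macrophages. The log2 ratios were -2.49 (-3.91 to -1.53), -1.47 (-1.81 to -1.17) and -1.91 (-2.29 to -1.58). In library 1 the 5 dividing cells held 0 Cdkn2a UMIs, which at 3 counts allows up to 34.9 CPM, against 5.31 CPM in the others, so no difference was detectable at this depth. The library 2 level in dividing cells rests on 7 UMIs and overlaps that of B cells.

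Depth moved with division. Dividing cells had medians of 22318, 22714.5 and 20358 UMIs in libraries 2 to 4, against 12306.5, 13794.5 and 12820 in other macrophages. Before any scaling, dividing cells still carried fewer Cdkn2a UMIs each, 0.0376, 0.494 and 0.507, against 0.124, 0.849 and 1.22 in the others. At an equal 3000 UMIs, 0, 5.23 and 5.88% of dividing cells held a Cdkn2a UMI, against 1.68, 10.4 and 16.3% of other macrophages. The 0 of 186 cells in library 2 likewise allows a share of up to 1.61%, at 3 cells. The 7 macrophage markers summed to 35049, 38372 and 40661 CPM in dividing cells, against 45011, 52502 and 62416 CPM in other macrophages. Markers of large peritoneal macrophages summed to 4741, 6445 and 5612 CPM, against 6608, 9241 and 9000 CPM, and the small peritoneal list summed to 7325, 4809 and 9269 CPM, against 13932, 3528 and 5819 CPM. The part of these lists in the Cdkn2a difference was not tested.

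The difference was present inside each Timd4 class, with a gap in library 2. Among Timd4-high cells, Cdkn2a had 2.72, 33.4 and 34.5 CPM in the 48, 68 and 53 dividing cells of libraries 2 to 4, against 57.7, 91.1 and 131 CPM in the others (log2 ratios -4.19, -1.43 and -1.9). The library 2 value there rests on 3 UMIs in dividing cells, with an interval of -6.69 to -2.85. Among Timd4-low cells the ratios were -1.07 and -1.28 in libraries 3 and 4. The library 2 ratio there was -0.48, with an interval of -2.55 to 0.76 that includes 0. Dividing cells made up 8.87, 3.29 and 2.0% of Timd4-high macrophages and 3.75, 4.59 and 3.51% of Timd4-low ones.

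Few cells lay beside the limit of 5 UMIs. Cells with 5 UMIs of the 4 genes, just inside it, numbered 4, 12 and 7 and had 0, 20.5 and 16.2 CPM of Cdkn2a. Cells with 4, just outside, numbered 8, 8 and 6 and had 0, 0 and 9.44 CPM. Cells with 1 to 3 such UMIs had 5.13, 47.5 and 69.2 CPM, and cells with none had 10.6, 62.1 and 96.8 CPM. The levels of cells with 1 to 3 such UMIs thus lay below those of cells with none and above those past the limit.

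**Figure D3:**
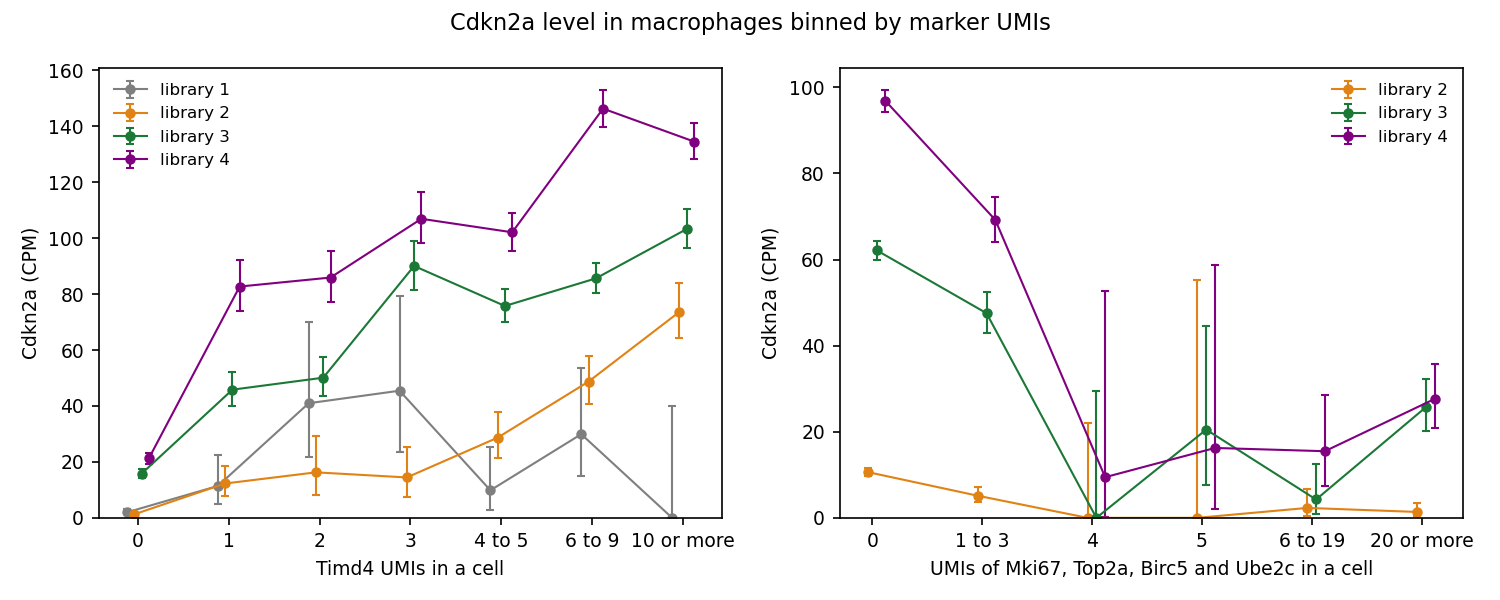
Cdkn2a level (vertical axes, CPM from 0) in macrophages binned by their Timd4 UMIs (left) or by their summed UMIs of Mki67, Top2a, Birc5 and Ube2c (right), with exact 95% Poisson intervals and 1 colour a library. Cells without Timd4 hold 1.26 to 21.2 CPM of Cdkn2a in libraries 2 to 4, and cells with 20 or more dividing UMIs 1.37 to 27.6 CPM; library 1 is left out on the right.

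Cdkn2c was 82.4, 89.3 and 106 CPM in dividing cells of libraries 2 to 4, against 9.01, 21.3 and 38.5 CPM in other macrophages. The ratios were 3.19, 2.07 and 1.47, and with 12 UMIs in 5 cells 2.90 (1.87 to 3.67) in library 1. Cdkn2d was 110, 114 and 131 CPM in dividing cells, against 36.3, 40.7 and 41.4 CPM. Its ratios, 1.60, 1.49 and 1.66, were alike across libraries. Both genes are known to be induced as cells enter the cycle. In Timd4-high cells alone the ratios were 2.70, 2.01 and 1.19 for Cdkn2c and 1.74, 1.53 and 1.8 for Cdkn2d.

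Cdkn1a was 160, 177 and 112 CPM in dividing cells, against 105, 118 and 72.1 CPM in other macrophages (ratios 0.60, 0.59 and 0.63). Cdkn1b was 30.3, 47.8 and 43.4 CPM, against 24.8, 30.4 and 31.8 CPM (0.29, 0.66 and 0.45). Trp53 was 93.6, 64.5 and 68.5 CPM, against 60.8, 40.9 and 42.3 CPM (0.62, 0.66 and 0.70). The median gene at 20 CPM stood at 0.08, 0.11 and 0.16 in these libraries. All 3 genes lay above the median gene and under the 2-fold limit, though the library 2 interval of Cdkn1b, 0.02 to 0.55, includes that median.

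Across dividing and other cells of libraries 2 to 4, 405 of 5333 genes were called higher (7.59%) and 9 lower (0.169%). Of 5 members tested, Cdkn2c and Cdkn2d passed the rule upward and none downward; Cdkn2a stayed under 20 CPM in library 2 and could not be called. The relation to division belongs to how the genes were chosen, and Cdkn2c reached 20 CPM in library 2 only in dividing cells, so nothing is read from that count. Those 3 libraries were chosen after the count of dividing cells was seen. Among S phase genes at 20 CPM in both sets, Pcna, the clamp of DNA polymerase, had 490, 315 and 286 CPM in dividing cells, against 82.1, 51.8 and 43.4 CPM in other macrophages. It was chosen after its values were seen.

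**Figure D4:**
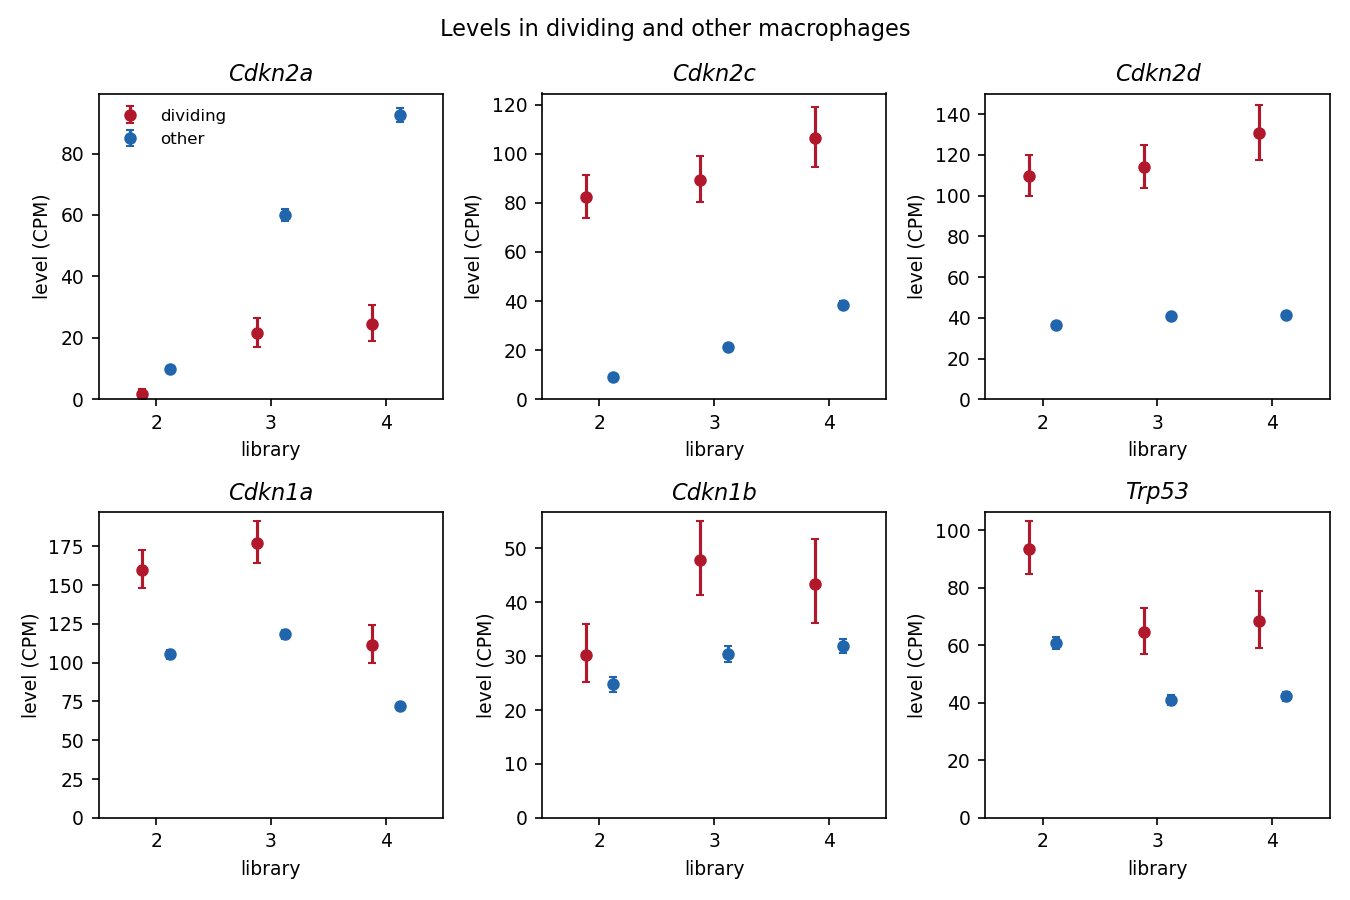
Levels of the 6 genes (vertical axis, CPM from 0) in dividing (red) and other (blue) macrophages of libraries 2 to 4 (horizontal axis), with exact 95% Poisson intervals. Cdkn2a is the one panel where red lies below blue; Cdkn2c and Cdkn2d in dividing cells reach 82.4 to 131 CPM.

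The kinases and cyclins that these inhibitors act on, and the proteins downstream, were followed as lists. A gene silent outside division passes the level of 20 CPM only through dividing cells and then has to differ, so counts are given only for genes at 20 CPM in both sets of libraries 2 to 4. The share of all genes called at that limit is not given, so nothing is read from the list counts here and in the next paragraph. Genes named from these lists were in part chosen after their values were seen. Of the INK4 target list (D-type cyclins, CDK4, CDK6, pocket proteins and E2F factors), 4 of 18 genes qualified, and Cdk4 was higher in dividing cells, at 164, 130 and 127 CPM, against 62.5, 56.0 and 51.6 CPM in other macrophages. Ccnd1, which encodes cyclin D1, had 193, 129 and 151 CPM, against 179, 251 and 207 CPM, and Ccnd3 and Rbl2 were within 2-fold. Of the genes without that level in other macrophages, E2f1, an activator of S phase genes, had 61.9, 32.1 and 32.8 CPM, against 12.5, 6.69 and 7.43 CPM, and the pocket protein gene Rbl1 had 58.0, 44.0 and 44.5 CPM, against 10.3, 5.54 and 5.81 CPM. No gene of the CIP/KIP target list qualified; Cdk1, the kinase of mitosis, had 176, 192 and 226 CPM in dividing cells, against 2.23, 1.78 and 2.42 CPM. Of the p53 pathway list 8 of 20 genes qualified and none was called; Btg2, an antiproliferative gene, had a median log2 ratio of -0.51 and Ccng1 one of 0.41.

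Of the regulators of the Cdkn2a locus, 2 of 15 qualified. Suz12, a subunit of the Polycomb complex that methylates histone H3, was higher in dividing cells, at 119, 102 and 87.2 CPM, against 37.8, 33.2 and 35.9 CPM, and Eed was within 2-fold. Ezh2, the methyltransferase of that complex, had 116, 131 and 103 CPM, against 13.4, 10.8 and 10.9 CPM. Of 20 genes linked to senescence, 7 qualified and 2 were higher. These were Hmgb2 and Hmgb1 (medians 3.41 and 1.5), chromatin proteins whose loss, not gain, is known to accompany senescence. Igfbp4 stood at 1.06 and was not past 2-fold in library 2. Across the Timd4 split, 6 INK4 target, 9 p53 pathway, 2 locus regulator and 7 senescence-linked genes could be tested. So could 3 S phase genes and 2 of G2 and mitosis. No gene of the 8 lists was called, beside 0.0426% of all genes called higher and 0.0853% lower. Cdkn2b, Cdkn1c and the CIP/KIP targets could not be tested, and nothing is read from the lack of calls. Glb1, the lysosomal galactosidase used as a senescence stain, had 0.96, 0.75, 0.54 and 0.46 in libraries 1 to 4, Igfbp4 had -0.83, -0.54, -0.64 and -0.65, and Cdk6 had 0.36, 0.46, 0.35 and 0.40.

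To ask what accompanied Cdkn2a within macrophages, cells were thinned to 3000 UMIs and split by whether a Cdkn2a UMI remained, which gave 17, 67, 441 and 799 positive cells. Cells whose Cdkn2a UMIs were lost in thinning stand among the negative cells. Cxcl13, a B cell chemoattractant of the peritoneum, was 3570, 3938, 6102 and 4033 CPM in positive cells of libraries 1 to 4, against 568, 229, 2994 and 1645 CPM in negative cells. Vsig4, a complement receptor of resident macrophages, was 1138, 423, 669 and 700 CPM, against 235, 40.7, 331 and 229 CPM. Chil3, a chitinase-like protein gene, was 275, 518, 126 and 17.1 CPM in positive cells, against 1316, 2838, 631 and 172 CPM. Of the 1103 genes of 4729 with 1 sign in all libraries, the 8 highest medians were those of Vmn2r26, Marco, Enpp5, Cxcl13, Vsig4, Nt5e, Tox2 and Garnl3. Among the 8 lowest were those of Chil3, H2-Eb1, Cd74, H2-Ab1, H2-Aa and Susd3, of which H2-Eb1, H2-Ab1, H2-Aa and Cd74 serve antigen presentation on MHC class II.

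By the call rule in libraries 2 to 4, 4 of 4894 genes were higher in positive cells (0.0817%), Tns1, C130026I21Rik, Vsig4 and Cxcl13, and 9 lower (0.184%). The 9 held Ccr2, H2-Aa, H2-Ab1, Cd74 and Retnla, 5 of the 7 small peritoneal markers. Mrc1 and Folr2 of that list were not called. In library 1, outside the rule, Ccr2 had a log2 ratio of 0.50 and Retnla one of -0.04. None of the 5 other members was called in either direction. The thinned draw is random, and 3 to 5 genes were higher and 9 to 11 lower over 3 draws. Vsig4 and C130026I21Rik were called in 1 of the 3 draws and Tns1 and Cxcl13 in all 3. Vsig4 was also lost with 5000 UMIs or without dividing cells, and C130026I21Rik with 5000 UMIs. Of the 5 lower markers named, Retnla was lost in a draw over macrophages alone.

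Timd4 itself remained in 71.6, 63.7 and 66.2% of positive cells of libraries 2 to 4, against 11.4, 38.6 and 44.0% of negative ones, so the split was repeated inside Timd4-high cells. There, 0 of 4910 genes were called higher (0%) and 1 lower (0.0204%), Chil3. Before thinning, 1469 and 1621 Timd4-high cells of libraries 3 and 4 held no Cdkn2a UMI, while 1735 and 2054 counted as negative after it. The negative set thus held carriers of Cdkn2a, and their part in these ratios and counts was not tested. Vsig4 was 507, 716 and 762 CPM in positive Timd4-high cells of libraries 2 to 4, against 159, 443 and 313 CPM in negative ones. Cdkn2b was 20.0, 31.0 and 34.0 CPM, against 2.04, 15.8 and 26.3 CPM; library 2 rests on 3 UMIs in each set, and the interval included 0 in library 4 (log2 ratio 0.38, -0.08 to 0.80). Stmn1, a microtubule regulator of dividing cells, was 6.67, 28.0 and 4.45 CPM, against 114, 40.9 and 29.4 CPM. Its values in positive cells of libraries 2 and 4 rest on 1 and 8 UMIs. The library 3 interval included 0 (log2 ratio -0.52, -1.17 to 0.03). Median depths in these Timd4-high cells were 14421.5, 15146 and 13401 UMIs in positive cells and 14365.5, 14727 and 13841.5 in negative cells. Median mitochondrial shares were 4.87, 4.54 and 4.27% in positive cells and 4.27, 4.24 and 4.04% in negative cells, and their part was not tested. This comparison was added after the first results were seen.

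**Figure D5:**
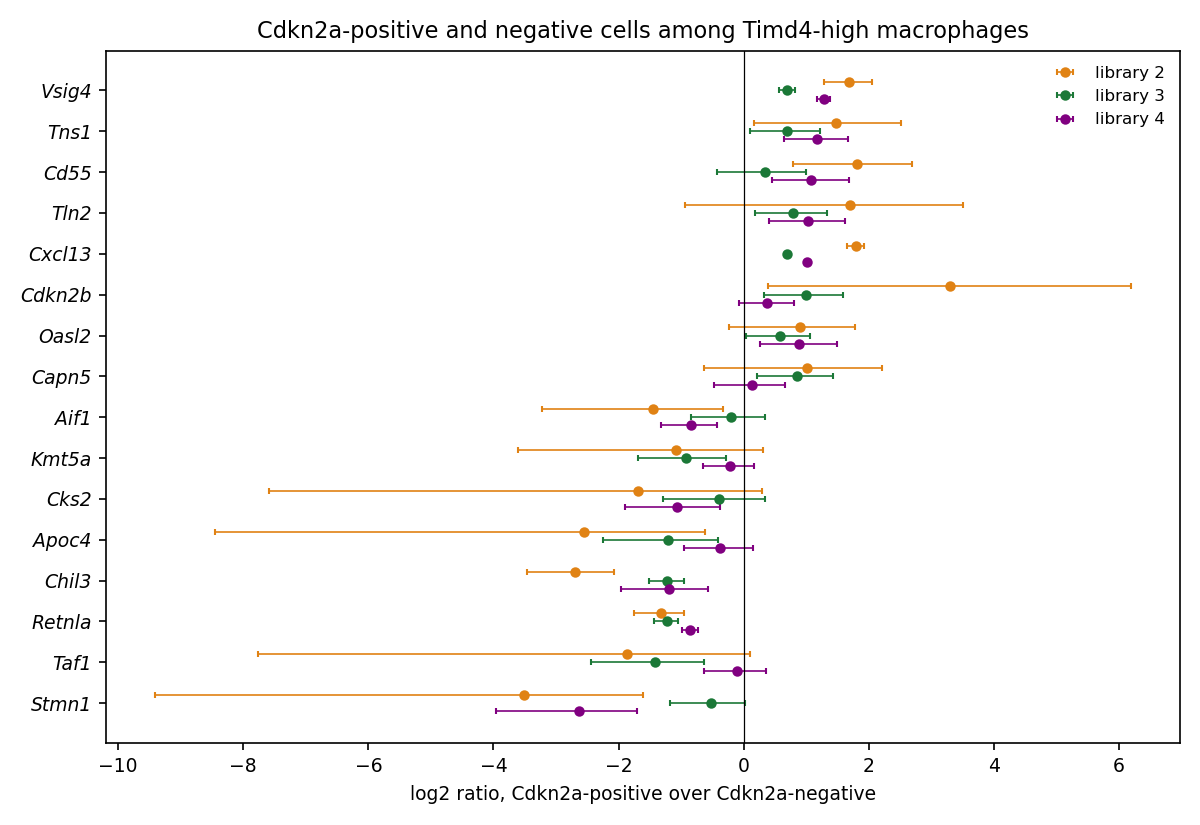
Log2 ratio of Cdkn2a-positive over Cdkn2a-negative Timd4-high macrophages (horizontal axis) for the 8 genes with the highest and the 8 with the lowest median over libraries 2 to 4 (rows), with exact 95% intervals and 1 colour a library. Vsig4 lies at 0.69 to 1.68 and Retnla at -1.33 to -0.85, and several other intervals cross 0.

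Among the members, Cdkn2c had a UMI in 4.54% (2.79 to 6.92) of positive cells of library 3 and 7.63% (5.89 to 9.70) of positive cells of library 4, against 7.0% (6.22 to 7.85) and 11.3% (10.4 to 12.3) of negative cells. The 2 intervals overlapped in library 3 and did not in library 4. In Timd4-low cells of library 4 the shares were 11.0 and 11.4%. In libraries 1 and 2 the order was the opposite, on 4 and 6 cells. These orders depended on the draw. In a second draw the log2 ratio of Cdkn2c levels in library 4 was -0.28, with an interval of -0.64 to 0.05 that includes 0. In library 2 it was -0.71, on 1 UMI in positive cells. Cdkn2b was found in 7.71% (5.40 to 10.6) and 8.89% (7.01 to 11.1) of positive cells of libraries 3 and 4, against 3.70% (3.12 to 4.34) and 6.06% (5.36 to 6.83) of negative cells, with no overlap in library 3 or in library 4. Cdkn1a was found in 22.2 and 16.1% of positive cells, against 25.4 and 17.2%, and Trp53 in 11.3 and 10.6%, against 11.5 and 11.8%. Mki67 was found in 2.72% (1.41 to 4.70) and 2.25% (1.34 to 3.54), against 4.24% (3.63 to 4.92) and 3.72% (3.17 to 4.34).

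Over the 8 sets of 4 libraries and 2 Timd4 classes, the 10 genes whose log2(CPM + 1) followed Cdkn2a most closely among 6592 included Dab2ip (Pearson r = 0.963), Itga6, Vmn2r26, Garnl3, Dennd4a, Pi16, Gata6 (0.933), Nt5e and Adam8. Itga6 encodes integrin alpha 6, Nt5e the ectoenzyme CD73, and Gata6 the transcription factor of large peritoneal macrophages. Gata6 was 123, 108, 140 and 143 CPM in Timd4-high cells, against 48.6, 56.8, 116 and 123 CPM in Timd4-low cells. Cdkn2b followed at 0.897, Timd4 at 0.824, Cdkn2c at 0.699, Cdkn2d at 0.444, Cdkn1a at 0.243, Cdkn1b at -0.231 and Trp53 at -0.525. The 8 sets share 4 libraries and their depths, so these values only describe the order.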

How the data were processed

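Single-cell RNA was counted in F4/80-positive peritoneal cells sorted from 4 samples, with 10x Genomics 3' kit version 3 per the labels' protocols. Per the file headers, cellranger 5.0.1 made the matrix that the authors deposited, whose values are unscaled UMI counts. CASAVA 1.8, Seurat and the mm10 build are named in the submitters' processing notes. Neither source states the annotation, the counting settings or any removal of free RNA or doublets.

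Cells were filtered and classed as the report states. No doublet caller was run; the gate removes cells with a UMI of Cd79a or Cd3e, and a version without the deepest 5% of macrophages was tried. UMIs were summed over each set of cells and divided by all UMIs of the set, times 1000000 (CPM). B and T cells had 2 UMIs or more of Cd79a or Cd3e and none of Adgre1. Ratios used a prior count of 0.5. Intervals are exact Poisson, Clopper-Pearson, or for ratios the conditional binomial, at 95%, and cover counting error only; a count of 0 allows up to 3 counts. No p-value was computed, with 1 sample a group and no map from suffix to sample. Medians over libraries only rank genes.

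The members, the 8 gene lists and the 10 marker lists were chosen with earlier results of these data known. Named genes are all members, up to 4 a list with the largest median ratio, the 10 most like Cdkn2a, and the 8 highest and lowest between Cdkn2a-positive and negative cells with 1 sign in all libraries, leaving out gene models without a symbol; genes called in counts under 10 are named as well. Some genes that this rule names are not reported here. Positions come from GENCODE M21 on GRCm38. Counts were simulated with Poisson error alone for 31253 genes, with 200 genes changed 4-fold. The changed genes were at 20 CPM or more, and each library was scored alone. A 2-fold limit then recovered 100% in the dividing comparison of libraries 2, 3 and 4. For the Timd4 split it recovered 99.5% in library 1 and 100% in libraries 2 to 4. Such recovery is nearly fixed by a 4-fold change and does not test the call rule, which needs every library. The intervals covered the true ratio for 95.2 to 95.4% of the genes checked in the dividing comparison. Such coverage follows from a Poisson draw and does not extend to Cdkn2a, whose variance exceeded its mean. Tools were Python 3.11.15, numpy 2.4.6, scipy 1.17.1, pandas 2.3.3 and matplotlib 3.10.9.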

Additional observations from a re-analysis of the deposited data

How the results depend on the processing

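No paired analysis was possible because the labels give every group the single replicate number 1 and no column is tied to a sample. Cdkn2a kept its direction under every alternative run: below 0 between dividing and other macrophages in libraries 2 to 4 (-4.19 to -0.48, -1.65 to -1.07 and -2.13 to -1.28) and above 0 between Timd4-high and Timd4-low cells in libraries 1 to 4 (2.43 to 3.48, 4.23 to 5.61, 1.15 to 2.33 and 1.23 to 2.5). Values outside the first counting interval were these. For division, they were -1.51 in library 2 without the deepest 5% of macrophages, -4.19 there in Timd4-high cells only, and -0.48, -1.07 and -1.28 in Timd4-low cells of libraries 2, 3 and 4. For the Timd4 split, they were 5.61 and 2.05 in libraries 2 and 3 at 5% mitochondrial UMIs, 4.23 and 1.68 when thinned, 2.33 and 2.5 in libraries 3 and 4 at 1 Timd4 UMI, and 4.34, 1.15 and 1.23 in libraries 2, 3 and 4 at 6. The cause was not tested. Cdkn2c and Cdkn2d stayed at 1.19 or more for division in libraries 2 to 4 under all 33 settings each. Cdkn1b in library 2 turned to -0.024 for division in Timd4-high cells only, and Cdkn1a in library 1 to -0.42 for the Timd4 split at 6 UMIs, both with intervals that include 0. Genes called between Cdkn2a-positive and negative cells numbered 0 higher and 1 lower within Timd4-high cells. A draw over macrophages alone gave 5 and 11, of which 2 and 8 were among the 4 and 9 reported. Of the 10 genes most like Cdkn2a, 8 remained with a pseudocount of 5 and 3 with genes from 5 CPM. The Timd4-class fits of division and the Timd4-high, macrophage-only and non-dividing Timd4 repeats were chosen after seeing the data. Library 1 held 5 dividing and 17 Cdkn2a-positive thinned cells, which limits its values.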

Other observations

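Of 5333 genes tested, 9 (0.169%) were called lower, past 2-fold, in dividing than in other macrophages of libraries 2 to 4. They were Kdm5b, Tgfb2, Pbxip1, Cxcl13, Il18bp, Tcp11l2, Cd63, Slfn5 and Iigp1. Cdkn2a could not be called, since it had 9.79 CPM in other macrophages of library 2. Its log2 ratios there and in libraries 3 and 4 were -2.49, -1.47 and -1.91. Cdkn2b and Cdkn1c could not be tested either. In library 1, with 5 dividing cells, Il18bp and Cd63 had log2 ratios of 1.34 and 0.30. Cxcl13, the chemokine that was higher in Cdkn2a-positive cells, had -2.02, -2.46 and -1.81 in libraries 2 to 4. Slfn5, an interferon-induced gene, had -2.72, -2.30 and -2.70, and Kdm5b, a histone demethylase, -2.79, -2.01 and -2.01. Cdkn2b had -1.07 (-3.59 to 0.31), -1.34 (-2.09 to -0.73) and -2.13 (-3.02 to -1.45), on 3, 20 and 15 UMIs in dividing cells.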
